A study of Mus musculus with 6 samples.

Results

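The 8 genes described here encode the lecticans aggrecan (Acan), brevican (Bcan), neurocan (Ncan) and versican (Vcan), the link proteins Hapln1 and Hapln4, and the tenascins Tnr and Tnc. Their probe sets were taken as all those of the array whose platform annotation gives 1 symbol among these 8. The rule found 22 probe sets of 45037 tested: 8 for Vcan, 4 for Hapln1, 3 for Ncan, 2 each for Bcan and Tnc, and 1 each for Acan, Hapln4 and Tnr.

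Total RNA of mouse brain was measured on 6 one-colour oligonucleotide arrays, in 3 groups of 2 arrays. Knockout brains carried a Nestin-Cre transgene and floxed Pofut1 on both chromosomes. NestinCre control brains carried the transgene with wild-type Pofut1, and Flox control brains carried floxed Pofut1 on both chromosomes without the transgene. All mice were labelled C57/Bl6 and 2 months of age. Pofut1 encodes the enzyme that adds O-linked fucose to EGF-like repeats, among them those of the Notch receptors. Nestin-Cre acts in neural progenitors and so in the neurons and macroglia that descend from them, while microglia come from another lineage and keep the floxed gene. The labels give brain as the tissue with no region, and do not say whether an array holds 1 animal or a pool. The p-values therefore rest on the spread between arrays of a group, and that spread may be technical.

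Lecticans are chondroitin sulphate proteoglycans that bind hyaluronan through their N-terminal end and tenascins through their C-terminal end. Link proteins hold the bond to hyaluronan in place, and tenascin-R, a trimer, cross-links the lecticans. Together they form the diffuse matrix of the adult brain and its dense form, the perineuronal net, which wraps the cell bodies of many parvalbumin interneurons. In the adult brain Vcan and Bcan transcripts are known from oligodendrocyte precursors and Bcan also from astrocytes, and Acan and Hapln4 from neurons that bear nets.

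Values are log2 of the deposited intensity, and the brightest probe set of a gene over the 6 arrays is its reference. The median over all probe sets was 7.34 and the lowest value on each array was close to 5.25, so values near that floor carry little signal. Array medians lay between 7.32 and 7.36. Pofut1 itself read 9.25 and 9.44 in knockout brains, against 9.84 and 9.77 in NestinCre control and 9.95 and 9.81 in Flox control brains. Its difference of -0.50 (SE 0.08) from both controls had an adjusted p of 0.211 by limma. The sources used here do not say which of its exons the probes cover. Xist and Eif2s3y marked knockout replicate 1 and NestinCre control replicate 2 as male and the other 4 arrays as female. Pituitary transcripts stood out in Flox control brains, with Gh at 7.87 and 9.40.

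No probe set of the 8 genes passed the adjusted threshold of 0.05 in knockout against both controls, where 0.0155% of all probe sets passed (7 of 45037). Vcan was the member farthest above the controls and Bcan the one farthest below among reference probe sets. The reference probe sets of Ncan, Acan, Hapln1, Hapln4 and Tnc differed by less than 0.1 on the log2 scale, and Tnr by 0.25. The intervals of all these probe sets spanned 0. At an unadjusted p under 0.05 there were 9 of the 22 probe sets, against 11.1% of all probe sets. The 5 that were higher all belonged to Vcan, and the 4 that were lower belonged to Bcan and Hapln1. Probe sets of 1 gene read transcripts of the same gene and are not independent of each other. In bulk tissue, fewer cells of a type and less RNA per cell cannot be told apart.

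Taking 1 reference probe set per gene, Vcan was the single member higher and Bcan the single member lower at an unadjusted p under 0.05. Bcan did not keep that unadjusted p when either knockout array was left out (0.0530 without replicate 2 and 0.0588 without replicate 1, by limma), and the members past it numbered 1 to 3 without single arrays. Of all 18193 genes, 4.16% were higher and 6.45% were lower by that rule. The median difference of the 8 genes was -0.02, with 4 genes positive and 4 negative, and the median of all genes was also -0.02.

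**Figure D1:**
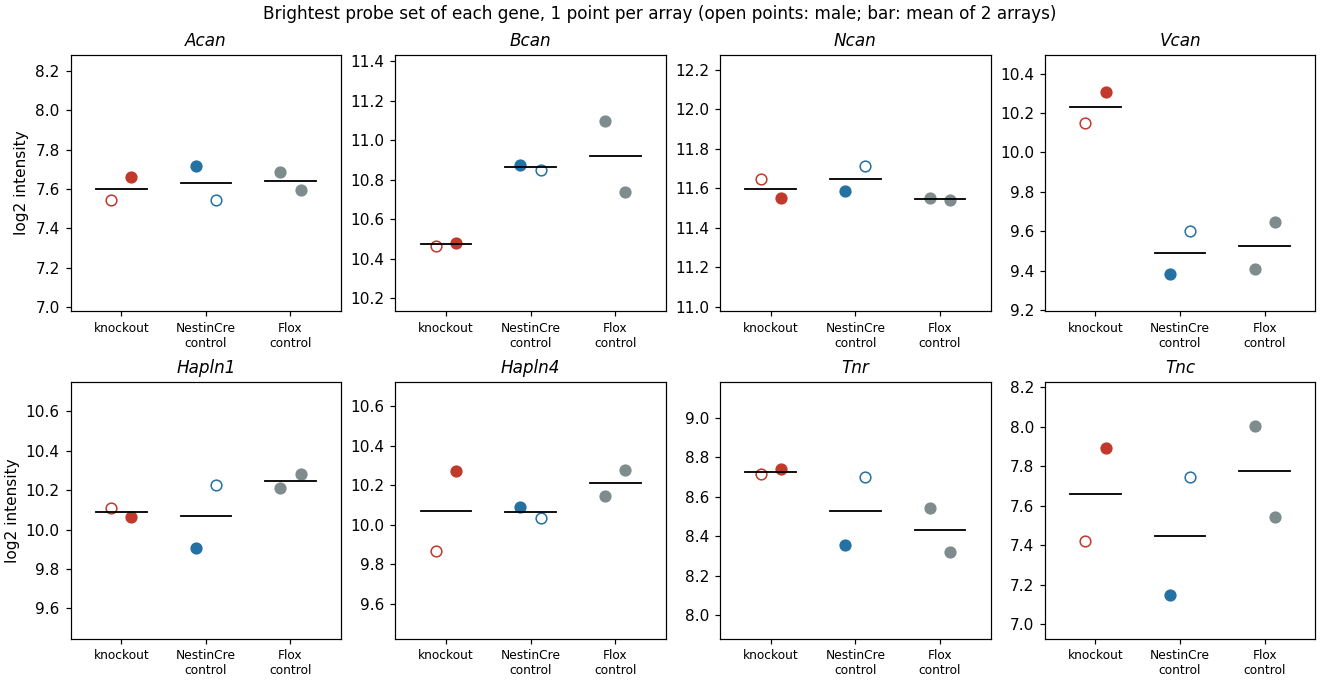
The log2 intensity of each gene's reference probe set is plotted by array, with the knockout, NestinCre control and Flox control arrays as points (open for male arrays) and the group means as bars. Both knockout points of Vcan (10.15 and 10.31) lie above all 4 control points, and both of Bcan (10.47 and 10.48) lie below all 4.

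Versican is the large lectican of the loose matrix, present in nodes of Ranvier and made in the adult brain mainly by cells of the oligodendrocyte lineage. Its reference probe set read 10.15 and 10.31 in knockout brains, against 9.38 and 9.60 in NestinCre control and 9.41 and 9.65 in Flox control brains. The lowest knockout array was thus above the highest control array. The means were 10.23 ± 0.11 in knockout, 9.49 ± 0.15 in NestinCre control and 9.53 ± 0.17 in Flox control brains (SD, n = 2 each). The difference from both controls was 0.72 (SE 0.11, 95% interval 0.442 to 0.996), a 1.65-fold higher intensity. The adjusted p by limma was 0.183. With an intensity trend and a robust fit, the adjusted p was 0.0477, the one setting tried in which Vcan passed.

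The second Vcan probe set, which shares its annotated source sequence with the first, read 8.39 and 8.74 in knockout brains, against 7.97 and 7.97 in NestinCre control and 7.95 and 8.02 in Flox control brains. The third read 7.64 and 7.88 in knockout brains, against 7.09 and 7.22 in NestinCre control and 6.69 and 7.41 in Flox control brains. Their differences were 0.59 and 0.65, with adjusted p-values of 0.225 and 0.391 by limma. Both kept the knockout arrays above every control array, although the third spread widely between the Flox control arrays.

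The next pair of Vcan probe sets, in order of brightness, share a source sequence and were dim. The brighter of the pair read 6.21 and 5.98 in knockout brains, against 5.61 and 5.87 in NestinCre control and 5.58 and 5.74 in Flox control brains. The dimmer read 5.96 and 5.64 in knockout brains, against 5.48 and 5.65 in NestinCre control and 5.34 and 5.37 in Flox control brains, so its groups overlapped. The last 3 Vcan probe sets stayed between 5.29 and 5.50 on every array, at the floor of the arrays, with differences of 0.01 to 0.05. The 3 brightest Vcan probe sets thus had differences of 0.59 to 0.72 and the dim pair 0.34 and 0.40, while those at the floor can show little.

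Brevican is a brain-specific lectican of the perisynaptic matrix and of perineuronal nets. Its reference probe set read 10.47 and 10.48 in knockout brains, against 10.88 and 10.85 in NestinCre control and 11.10 and 10.74 in Flox control brains. Both knockout arrays were below every control array, and the Flox control arrays lay farthest apart. The means were 10.47 ± 0.01 in knockout, 10.86 ± 0.02 in NestinCre control and 10.92 ± 0.26 in Flox control brains (SD, n = 2 each). The difference from both controls was -0.42 (SE 0.11, 95% interval -0.70 to -0.13), with an adjusted p of 0.316 by limma. The name of this probe set ends in _x_at, and whether its probes also read other transcripts was not tested.

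The other Bcan probe set read 9.43 and 9.61 in knockout brains, against 9.92 and 9.80 in NestinCre control and 9.91 and 9.62 in Flox control brains. It also placed both knockout arrays below every control array, by a narrow margin against Flox control replicate 2. Its difference was -0.30, with an adjusted p of 0.433 by limma. Against NestinCre control it differed by -0.34 (unadjusted p 0.0431 by limma). Against Flox control it differed by -0.25, with an unadjusted p of 0.108 by limma, so it was not past 0.05 there. Within sexes it differed by -0.24 among females, with the control groups weighted equally, and by -0.37 among males.

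Neurocan, the lectican that is most abundant in the developing brain, had 3 probe sets, whose means of 11.60, 11.16 and 8.94 differ although they read 1 gene. The reference probe set read 11.65 and 11.55 in knockout brains, against 11.59 and 11.71 in NestinCre control and 11.55 and 11.54 in Flox control brains. The groups overlapped, and the difference of 0.0008 had a 95% interval of -0.16 to 0.16. A second Ncan probe set had a difference of -0.0009 with a wider interval, -0.29 to 0.29. The third and dimmest read 8.90 and 8.59 in knockout brains, against 8.87 and 9.07 in NestinCre control and 9.01 and 9.18 in Flox control brains. Its difference was -0.29 (95% interval -0.60 to 0.02), so the Ncan probe sets did not give 1 value for the gene.

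Aggrecan is the lectican most tied to perineuronal nets. It had 1 probe set, close to the median of the arrays, at 7.55 and 7.66 in knockout brains, against 7.71 and 7.55 in NestinCre control and 7.68 and 7.60 in Flox control brains. The groups overlapped fully. The difference was -0.03 (95% interval -0.23 to 0.16).

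**Figure D2:**
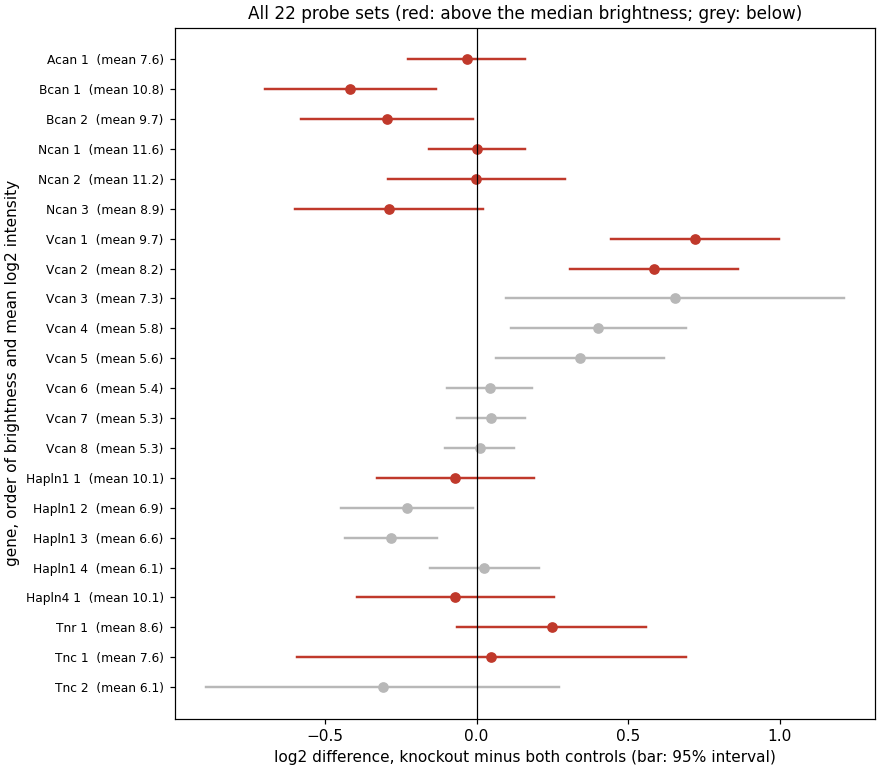
Each of the 22 probe sets is drawn by its log2 difference, knockout minus both controls, with a bar for the 95% interval, and labelled by gene, order of brightness and mean log2 intensity (red above the median brightness of all probe sets, grey below). The 5 intervals wholly above 0 belong to Vcan, with differences of 0.34 to 0.72, and the 4 wholly below 0 belong to Bcan and Hapln1.

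Hapln1, the link protein of nets and of developing matrix, gave different values by probe set. Its reference probe set read 10.11 and 10.06 in knockout brains, against 9.91 and 10.22 in NestinCre control and 10.21 and 10.28 in Flox control brains. Those groups overlapped, with a difference of -0.07 (95% interval -0.33 to 0.19). A pair of dim Hapln1 probe sets with a shared source sequence was lower in knockout brains, by -0.23 and -0.28. The second of that pair read 6.37 and 6.46 in knockout brains, against 6.57 and 6.68 in NestinCre control and 6.77 and 6.76 in Flox control brains, with an adjusted p of 0.248 by limma. Both of that pair lay below the array median and had both knockout arrays below every control array. The fourth and dimmest had a difference of 0.03.

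Hapln4, the link protein that anchors Bcan at inhibitory synapses of the cerebellum and brainstem, had 1 probe set. It read 9.87 and 10.27 in knockout brains, against 10.09 and 10.04 in NestinCre control and 10.15 and 10.28 in Flox control brains. The knockout arrays lay farther apart than those of either control. The difference was -0.07 (95% interval -0.40 to 0.25).

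Tenascin-R, made by oligodendrocytes and some interneurons, had 1 probe set. It read 8.72 and 8.74 in knockout brains, against 8.36 and 8.70 in NestinCre control and 8.54 and 8.32 in Flox control brains. Both knockout arrays were above every control array, but the lead over NestinCre control replicate 2 was small. The difference was 0.25 (SE 0.12, 95% interval -0.06 to 0.56), with an adjusted p of 0.542 by limma. It was 0.16 without NestinCre control replicate 1 and 0.33 without NestinCre control replicate 2.

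Tenascin-C, a glial tenascin of development and of neurogenic zones, was the member with the widest interval. Its reference probe set read 7.42 and 7.89 in knockout brains, against 7.15 and 7.74 in NestinCre control and 8.004 and 7.54 in Flox control brains. Replicates of each group differed by more than the group means did. The difference was 0.05 (95% interval -0.59 to 0.69), and the second probe set gave -0.31 (95% interval -0.89 to 0.27).

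Across the 22 probe sets, both knockout arrays were above all 4 control arrays in 6, of which 5 were Vcan and 1 was Tnr. Among those 5, 1 lay at the array floor, with a difference of 0.05. Both knockout arrays were below all 4 control arrays in 4 probe sets, 2 of Bcan and 2 of Hapln1, and the groups overlapped in 12. Over all probe sets, 8.77% had both knockout arrays above every control array and 9.19% had both below.

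**Figure D3:**
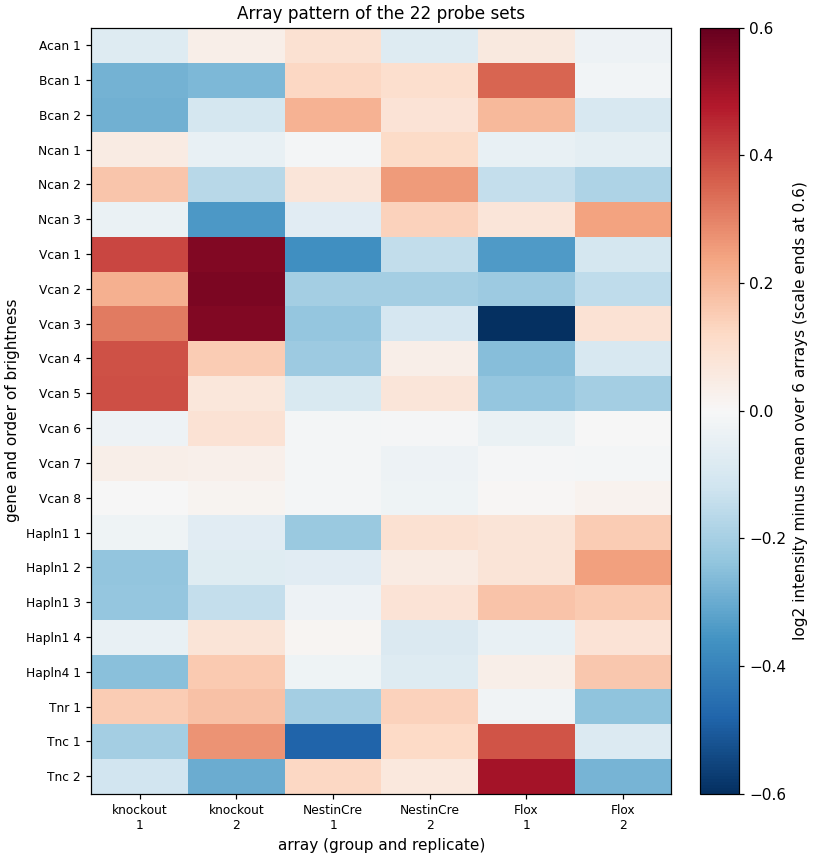
Rows are the 22 probe sets by gene and order of brightness, columns are the knockout, NestinCre control and Flox control arrays, and colour is the log2 intensity minus the mean over the 6 arrays. The first 3 rows of Vcan are above their mean in both knockout arrays and the rows of Bcan are below theirs, while the last 3 rows of Vcan are nearly without colour.

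The 2 controls served to set the knockout against the transgene alone and the floxed allele alone. These comparisons share the knockout arrays. Against NestinCre control, 6 of the 22 probe sets had an unadjusted p under 0.05, with 5.81% of all probe sets there, and the smallest adjusted p of a member was 0.408 by limma. No probe set on the array passed the adjusted threshold in that comparison by limma, while 2617 had an unadjusted p under 0.05. Against Flox control, 8 of the 22 had an unadjusted p under 0.05, with 15.9% of all probe sets there. The smallest adjusted p of a member was 0.143 by limma, and 0.00444% of all probe sets passed the adjusted threshold.

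Vcan was higher by 0.74 against NestinCre control and by 0.70 against Flox control. The reference probe set of Bcan differed by -0.39 against NestinCre control and by -0.44 against Flox control. Its value against Flox control was -0.26 without Flox control replicate 1 and -0.63 without Flox control replicate 2. Tnr differed by 0.20 against NestinCre control and by 0.30 against Flox control. Tnc had opposite signs, 0.21 against NestinCre control and -0.12 against Flox control. In the same order of controls, the signs also differed for Hapln1 (0.02 and -0.16), Hapln4 (0.0043 and -0.15) and Ncan (-0.05 and 0.05).

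Between the controls, NestinCre control minus Flox control, 0 of the 22 probe sets had an unadjusted p under 0.05 by limma, with 10.4% of all probe sets there. The smallest adjusted p of a member was 0.491 by limma. Vcan differed by -0.04 (95% interval -0.36 to 0.28) and Bcan by -0.06 (95% interval -0.38 to 0.27). The member nearest to the threshold was the second Ncan probe set, with 11.23 and 11.41 in NestinCre control and 11.01 and 10.97 in Flox control brains, a difference of 0.33.

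The sexes were not balanced between groups, since both Flox control arrays were female. Among females, with 1 knockout and 3 control arrays, Vcan differed by 0.85, Bcan by -0.42 and Tnr by 0.34. The female control value was the mean of the control group means, so NestinCre control replicate 1 weighed as much as both Flox control arrays. Between the male knockout and the male NestinCre control array, Vcan differed by 0.55, Bcan by -0.38 and Tnr by 0.02. Vcan and Bcan thus kept their direction in both sexes, and the Tnr difference among males was close to 0. Tnc differed by 0.43 among females and by -0.32 among males. With 1 knockout array per sex there is no test of these values.

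The promoters of Vcan, Bcan and Tnr are shown because these are the members whose reference probe sets separated knockout from control arrays. Each is the stretch of 250 bases before the annotated start, from RefSeq on GRCm38.p6. Capitals mark TGGGAA, the core bound by the Notch pathway's DNA-binding factor RBPJ, searched on both strands. The Vcan window is chr13:89742513-89742762 on the minus strand, the Bcan window chr3:88000357-88000606 on the minus strand, and the Tnr window chr1:159523519-159523768 on the plus strand. The Vcan and Bcan windows lie inside the annotated span of their own gene, whose annotation begins farther upstream.
Vcan: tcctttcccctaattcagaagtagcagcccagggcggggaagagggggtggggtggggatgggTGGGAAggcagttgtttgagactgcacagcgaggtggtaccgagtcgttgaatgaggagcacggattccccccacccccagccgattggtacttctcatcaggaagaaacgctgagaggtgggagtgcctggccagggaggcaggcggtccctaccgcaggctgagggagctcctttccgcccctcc
Bcan: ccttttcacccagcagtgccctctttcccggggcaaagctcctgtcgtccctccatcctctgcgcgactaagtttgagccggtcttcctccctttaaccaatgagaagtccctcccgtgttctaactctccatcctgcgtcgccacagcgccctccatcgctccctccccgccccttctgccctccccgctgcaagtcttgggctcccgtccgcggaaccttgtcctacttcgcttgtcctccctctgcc
Tnr: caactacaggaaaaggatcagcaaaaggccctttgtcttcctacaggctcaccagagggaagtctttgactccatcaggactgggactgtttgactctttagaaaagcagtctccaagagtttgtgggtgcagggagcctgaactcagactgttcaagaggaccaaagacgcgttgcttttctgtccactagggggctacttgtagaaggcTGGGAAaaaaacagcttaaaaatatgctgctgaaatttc
Counted from the annotated start, the core begins at -187 in Vcan and at -39 in Tnr, and the Bcan window does not hold these letters. Of the 7 members with a promoter entry, 4 held the core (Vcan, Ncan, Tnr and Tnc), and 21.6% of all 32851 promoters of the same length held it. The Hes N-box CACNAG was in 3 members (Acan, Hapln1 and Tnr) and in 36.7% of all promoters. The Hes and Hey E-box CACGTG was in 0 members and in 6.02% of all promoters. Hapln4 had no entry. A match in letters is a description of the window and not of binding.

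Each lectican gene has a link protein gene beside it in the RefSeq gene order of the mouse. Vcan lies beside Hapln1 on chromosome 13, Ncan beside Hapln4 on chromosome 8, Bcan beside Hapln2 on chromosome 3 and Acan beside Hapln3 on chromosome 7. The differences within these pairs were 0.72 for Vcan and -0.07 for Hapln1, and -0.42 for Bcan and -0.0004 for Hapln2. The Ncan and Hapln4 pair had 0.0008 and -0.07, and the Acan and Hapln3 pair -0.03 and -0.08. The gene on the other side of Bcan is Nes, which encodes nestin, and its difference was -0.02 (95% interval -0.29 to 0.25). Whether the members of a pair differ from each other was not tested.

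Genes that build, hold or cut this matrix were listed by role, and 0 of them passed the adjusted threshold by limma in knockout against both controls. The counts that follow are at an unadjusted p under 0.05 over reference probe sets, to be read against the 4.16% higher and 6.45% lower of all genes. Among 23 measured genes of chondroitin sulphate synthesis, 0 were higher and 3 were lower, and 20 of the 23 had a negative difference, with a median of -0.04. Of all 18193 genes 10797 had a negative difference, with a median of -0.02. Papss2, which makes the sulphate donor, read 7.09 and 7.31 in knockout brains, against 8.46 and 8.52 in NestinCre control and 8.95 and 8.84 in Flox control brains. Its difference of -1.49 (SE 0.08, 2.82-fold) had an adjusted p of 0.0501 by limma, and the controls also differed, by -0.40 in NestinCre control relative to Flox control brains. The other 2 were Chsy1, a chondroitin polymerase, at -0.33, and B3galt6, an enzyme of the linker sugar, at -0.19. B3galt6 differed by 0.0074 against NestinCre control and by -0.38 against Flox control. The controls differed in B3galt6 by -0.39, in NestinCre control relative to Flox control brains.

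Among 13 measured hyaluronan genes 2 were higher and 0 lower, with a median of 0.05. The count past that p was 1 without NestinCre control replicate 1 or knockout replicate 2, and 4 without knockout replicate 1. The 2 genes were Itih5, a relative of the heavy chains that bind hyaluronan, at 0.42, and the hyaluronan receptor Lyve1 at 0.41. Lyve1 was dim, with a mean of 6.65, below the median brightness of all probe sets. Among 12 other chondroitin sulphate proteoglycans 2 were higher and 0 lower, with a median of 0.06. The count was 1 without either NestinCre control or either knockout array. The 2 genes were the small proteoglycan Dcn at 0.44 and Cd74, the MHC class II invariant chain, at 0.43. Dcn is also in the list of meningeal fibroblast markers. The proteoglycan count was also 1 with repeated quantile normalization, centring, sex as a covariate or a pseudocount of 16.

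Among 19 measured matrix receptors and ligands 1 was higher and 2 lower, with a median of 0.0025. The higher gene was the integrin subunit Itgb1 at 0.22, and the lower were Rtn4rl2, of the Nogo receptor family, at -0.39 and Otx2, a homeoprotein taken up by nets, at -0.20. Otx2 is also in the list of choroid plexus markers. The count of receptors and ligands past that p was 1 with sex as a covariate and 1 with an intensity trend. Without Flox control replicate 2 the count of these receptors and ligands was 1. Among 19 measured proteases and inhibitors 1 was higher, the gelatinase Mmp2 at 0.50, and 1 was lower, the plasminogen activator Plat at -0.25. Their count past that p was 1 with repeated quantile normalization, an intensity trend or a replicate block. That count was 1 without NestinCre control replicate 2, Flox control replicate 1 or knockout replicate 1, and 4 without Flox control replicate 2. Of the other 4 link proteins and tenascins, Tnxb was lower at -0.19 and Hapln2, Hapln3 and Tnn lay between -0.08 and -0.0004. Tnxb was dim, with a mean of 6.51, below the median brightness of all probe sets. It was not past that p with an intensity trend, a replicate block or a pseudocount of 16, nor without some single arrays.

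**Figure D4:**
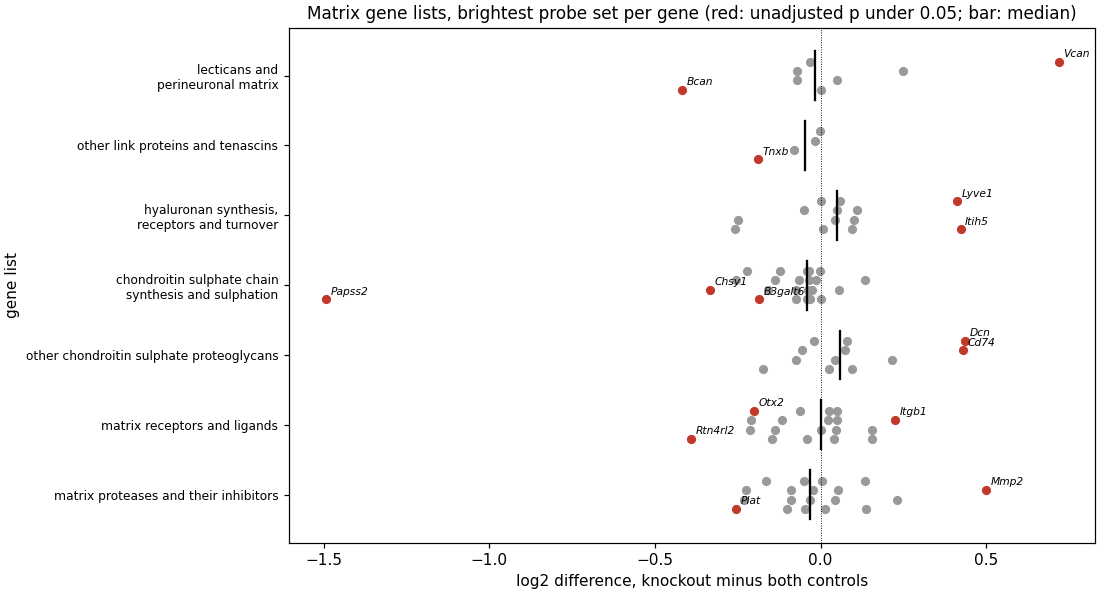
Each dot is the log2 difference, knockout minus both controls, of 1 gene's reference probe set, grouped by list down the page, with a bar for the median and red for an unadjusted p under 0.05. Papss2, at -1.49, lies apart from the other genes of chondroitin sulphate synthesis, and the 8 lecticans, link proteins and tenascins spread from -0.42 to 0.72.

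Markers of the cells known to make these genes were read in the same way, and 0 of the oligodendrocyte precursor, astrocyte and parvalbumin neuron markers passed the adjusted threshold by limma. Of 11 oligodendrocyte precursor markers 3 were higher at an unadjusted p under 0.05 (Bmp4 at 0.70, Gpr17 at 0.61 and Olig1 at 0.27) and 0 were lower, and 5 markers passed without NestinCre control replicate 2. Bmp4 was the dimmest of the 11 markers, of which 10 were above the median brightness of all probe sets. The defining marker Pdgfra differed by 0.12 and Cspg4 by 0.04. Their summed intensity was 8679 and 9129 in knockout brains, against 7532 and 8086 in NestinCre control and 9298 and 7935 in Flox control brains, so the groups overlapped. The part of these cells in the Vcan values was not tested.

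Of 12 astrocyte markers 2 were higher (Gfap at 0.86 and Aqp4 at 0.25) and 5 lower, the glutamate transporter Slc1a2 at -0.23 among them, with a median of -0.18. The 7 became 4 without Flox control replicate 1 or knockout replicate 1. Their summed intensity was 40878 and 41582 in knockout brains, against 42511 and 42025 in NestinCre control and 42317 and 42384 in Flox control brains. The sum was thus lower in both knockout arrays than in any control array, and its part in the Bcan values was not tested. Of 11 parvalbumin and fast-spiking neuron markers 0 were higher and 2 lower (1 without knockout replicate 1), and Pvalb differed by -0.01. Their sums overlapped between groups.

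Marker transcripts of vessel and immune cells also differed between the groups. All 12 pericyte and smooth muscle markers had a negative difference, with a median of -0.64, and 10 were lower at an unadjusted p under 0.05. The pericyte marker Rgs5 (-2.16) was the single gene of all the lists here to pass the adjusted threshold by limma. Their sum was 4863 and 4476 in knockout brains, against 7756 and 7679 in NestinCre control and 8576 and 8156 in Flox control brains. All 10 microglia markers had a positive difference, and 5 were higher (3 without NestinCre control replicate 2, Flox control replicate 1 or knockout replicate 2). Their sum was 13824 and 14081 in knockout brains, against 12032 and 12116 in NestinCre control and 13341 and 12454 in Flox control brains. Of 10 meningeal fibroblast markers 1 was higher and 2 were lower, with a median of 0.02, and their sums overlapped between groups. Of 10 choroid plexus markers 6 were lower and 0 higher, with a median of -0.34. Of 10 pan-neuronal markers 0 were higher and 0 lower by limma. Of 9 myelin markers and of 12 cerebellar and brainstem markers 1 each was lower and 0 higher. Without single arrays the pan-neuronal and myelin counts ranged from 0 to 1 and the cerebellar and brainstem count from 0 to 2. The part of each in the values of the 8 genes was not tested.

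**Figure D5:**
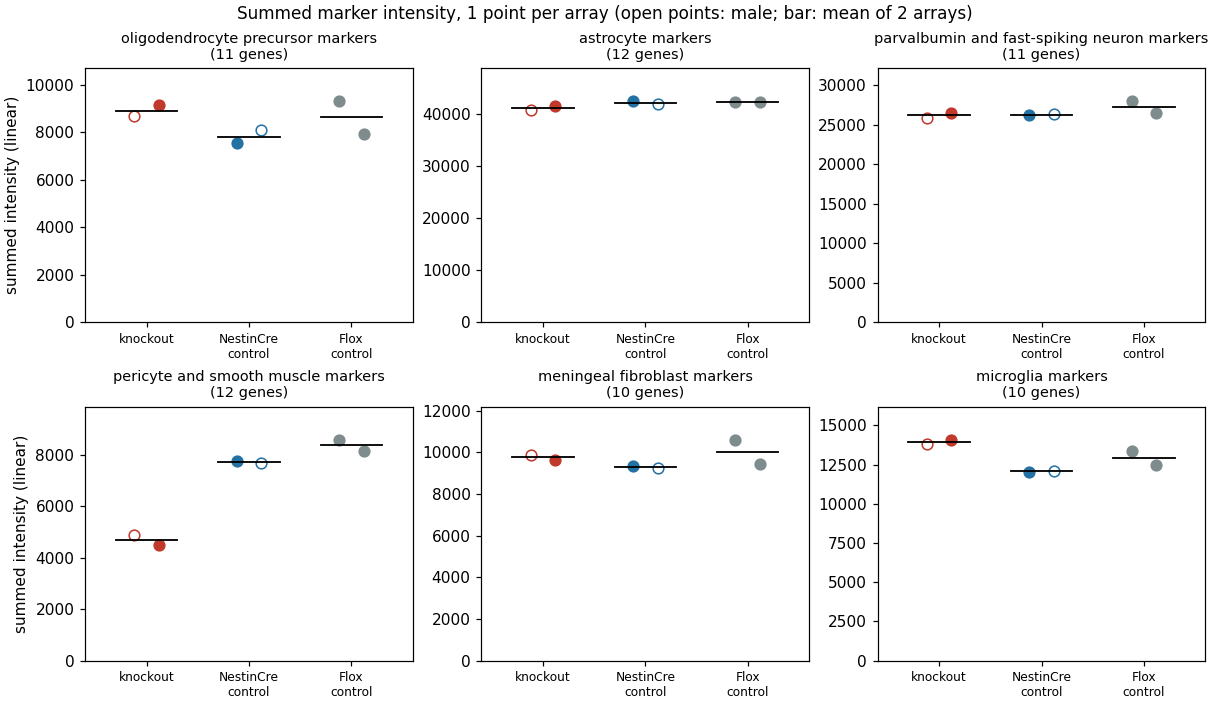
Summed linear intensity of each marker list is plotted by array for knockout, NestinCre control and Flox control brains, with open points for male arrays and bars for group means. The pericyte and smooth muscle sum is lower in both knockout arrays (4863 and 4476) than in any control array, and the oligodendrocyte precursor sums overlap.

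The genes whose pattern over the 6 arrays was most like a member's were sought among 2301 genes above the median brightness that ranged by at least 0.5. The arrays of a group share their genotype, so these correlations follow the groups as well as the arrays and are given as a description. For Vcan they were Padi2, a peptidylarginine deiminase, with a Pearson r of 0.996, Itih5 with 0.982 and the Fc receptor Fcgr3 with 0.980. For Bcan they were Cpox, an enzyme of haem synthesis, with 0.994, Casq2 with 0.993 and the growth factor Bmp7 with 0.987. The first gene for Tnr was Zfp975 with 0.988, and the first for Acan was Slc9a3r2 with 0.986. Vcan and Bcan ran against each other over the 6 arrays, with an r of -0.93.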

How the data were processed

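Expression was measured in total RNA of 6 brain samples, amplified from 25 ng per the labels' protocols. The authors deposited linear intensities, 1 for each probe set of an array. Per the submitters' processing notes, GCOS and RMA were used, and neither has a version there. RMA compresses differences of dim probe sets. Arrays give no read depth, and the number of arrays limits the precision.

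The test was planned on log2 values, and the deposited intensity is linear, so its log2 was computed before any fit. The 64 control probe sets of 45101 were left out. limma 3.58.1 in R 4.3.3 was fitted to 45037 probe sets with 1 mean per group over all 6 arrays (3 residual degrees of freedom), with eBayes and Benjamini-Hochberg adjustment over all of them. The knockout was compared with the mean of both control groups, with each control, and the controls with each other. The fit was tested on simulated data. Tables and figures were made with Python 3.11.15, pandas 2.3.3 and matplotlib 3.10.9.

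Gene names came from the platform annotation, where 34945 probe sets had 1 symbol. Every member was named by its brightest probe set and its others by value or range. Of each other list, up to 3 genes with the smallest unadjusted p were named, plus the neighbouring link protein genes and, for likeness, the 3 genes with the highest Pearson r. Nes, Pdgfra, Cspg4 and Pvalb were named beyond that rule, after their values were seen. The members and lists were chosen with earlier results of these data known. Alternatives were another normalization, centring, filters, prior settings, a replicate block, sex as a covariate, a pseudocount and leaving out each array. Their effect on the counts of members and the differences within each sex were added after seeing the data.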

Additional observations from a re-analysis of the deposited data

How the results depend on the processing

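Vcan stayed higher in every setting run, by 0.64 to 0.80 against both controls, and Bcan stayed lower, by -0.51 to -0.33. With 2 arrays per group, counts over all probe sets depended strongly on how the spread was estimated, and dim probe sets near the array floor can show little difference. In knockout against both controls, the 7 calls by limma became 22 with arrays centred on their medians, 34 with only bright probe sets, 34 with 1 probe set per gene, 135 with an intensity trend and 202 with a trend and robust fit. They became 0 with sex as a covariate and 0 to 1 without single arrays. Against NestinCre control, 0 calls became 9 with centring, 11 with bright probe sets, 10 with 1 per gene, 1 with only those groups, 39 with a trend, 72 with a trend and robust fit, and 0 to 1 without single arrays. Against Flox control, 2 calls became 9, 23 and 20 with centring, bright probe sets and 1 per gene, 162 with a trend and 325 with a trend and robust fit. They became 0 after repeated quantile normalization, with only those groups, with sex as a covariate, with a pseudocount of 16 and without any single array. Between the controls, 0 calls became 1 with a trend, 6 with a trend and robust fit, and 0 to 2 without single arrays. The cause was not tested.

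Deviations of same-numbered arrays correlated at -0.31 for knockout with NestinCre control, -0.24 for knockout with Flox control and 0.19 between the controls. With 2 arrays per group, differently numbered arrays correlate with the opposite sign. Knockout replicate 1 and NestinCre control replicate 2 were the male arrays. Whether the samples were paired, and the part of sex in these values, was not tested. With a replicate block there were 0 calls against both controls and 0 against Flox control.

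The members' 9 probe sets at an unadjusted p under 0.05 became 4 without knockout replicate 1 and 5 without NestinCre control replicate 1, and ranged from 4 to 8 without single arrays; a lone array was assumed to vary like the other groups. Differences near 0 changed sign. With sex as a covariate Acan was 0.0028 and Ncan -0.0267, and with centring Ncan was -0.0122. Without single arrays, Acan ranged from -0.0887 to 0.0238, Ncan from -0.0465 to 0.0481, Hapln1 from -0.15 to 0.0092, Hapln4 from -0.27 to 0.13 and Tnc from -0.19 to 0.29. Tnr kept its sign, from 0.16 to 0.33, and so did Bcan against Flox control, from -0.63 to -0.26. Between the controls, Vcan ranged from -0.15 to 0.0818 and Bcan from -0.24 to 0.13.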
